A study of Mus musculus with 19 samples.

Results

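Forkhead genes encode transcription factors that share a winged-helix DNA-binding domain. The 44 described here are the rows of the deposited gene table whose symbol is Fox followed by a letter from a to s and a number, out of 23846 genes. They were chosen by name and not by level. Of these, 20 reached at least 1 FPKM (fragment counts scaled by transcript length and by library size) in at least 3 libraries and were tested. The same 20 had a mean of at least 1 FPKM in at least 1 group. A further 18 stayed below that mean but above the lowest listed value, 0.001 FPKM, in some library, and 6 stood at 0.001 in all 19 libraries.

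Poly(A) RNA came from hindlimb muscle of C57BL/6J mice given 2.5 mg tamoxifen a day for 5 days at 8 weeks of age, then left for 10 days. All 5 groups shared this treatment, and the labels name no transgene, Cre driver or other allele. Whole held 4 libraries, titled as a cell suspension in the labels and as whole muscle in the deposited columns. LinPos, the lineage-positive cells of endothelial and blood origin, and LinNeg, the lineage-negative cells, held 4 libraries each. LinNeg cells sorted by the surface protein Sca1 gave LinNegSca1Neg with 4 libraries and LinNegSca1Pos, the mesenchymal progenitor fraction of the labels, with 3. All values below are FPKM per library in replicate order, or mean ± SD with n = 4 (n = 3 for LinNegSca1Pos). A log2 difference is between group means of log2(FPKM + 1), first group minus second, and its error is a standard error. Such a difference understates the change of low genes. A gene is called where limma's adjusted p over all 14043 tested genes was under 0.05. FPKM is scaled by transcript length, so levels can be set side by side between genes.

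The family is divided by letter. FoxO proteins carry out gene programs of stress resistance, cell cycle arrest and protein breakdown, and phosphorylation by the kinase Akt downstream of insulin and growth factors moves them out of the nucleus. In skeletal muscle they are known for switching on the ubiquitin ligases of atrophy. FoxC and FoxF factors act in vascular and perivascular development, FoxD3 in the neural crest, FoxM1 in mitosis, FoxJ1 in motile cilia and FoxP3 in regulatory T cells.

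Promoters of 28 of the 44 members were found in the RefSeq promoter table of the assembly GRCm38.p6, and 11 of the 20 tested members were among them, with 13 promoters. The window was 300 bases, of which 250 lay before the start site. GC content had a median of 67.7% in those 13 promoters, with a range from 48.7% to 79.3%, against 52.7% over all 32851 promoters. The GC box GGGCGG, a site for the Sp factors, stood on either strand in 10 of the 13 and in 35.7% of all promoters. The TATA box TATAAA was found in 0 of the 13 and in 13.6% of all. The forkhead factors' own site GTAAACA was found in 0 of the 13 and in 3.65% of all. Its form GTCAACA was likewise found in 0 of the 13 and in 2.5% of all. Foxa1, an untested member, was the forkhead gene with a GTAAACA match, at position -141 from its start. These matches are descriptions of letters in a window.

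Stretches of 120 bases that hold a GC box are shown for Foxc1, Foxo1 and Foxp4, whose means were highest in different groups, and for Foxd2, highest in the same group as Foxc1. A further one is shown for Foxd3, whose promoter held no GC box but an E-box, CACGTG, at position -217 from the start, a motif of 7.15% of all promoters. Capitals mark the motif on either strand, so that CCGCCC is the GC box read from the other strand. No annotated exon lies in the stretches. That of Foxc1 is chr13:31806513-31806632 on the plus strand, that of Foxo1 chr3:52268216-52268335 on the plus strand and that of Foxp4 chr17:47924646-47924765 on the minus strand. That of Foxd2 is chr4:114908899-114909018 on the minus strand and that of Foxd3 chr4:99656082-99656201 on the plus strand, all in GRCm38 and written from 5′ to 3′.
Foxc1: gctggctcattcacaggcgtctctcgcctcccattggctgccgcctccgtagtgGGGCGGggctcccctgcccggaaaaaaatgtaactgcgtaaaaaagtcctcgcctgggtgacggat
Foxo1: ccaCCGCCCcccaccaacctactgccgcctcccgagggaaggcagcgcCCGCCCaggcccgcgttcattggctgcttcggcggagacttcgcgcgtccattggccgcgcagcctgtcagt
Foxp4: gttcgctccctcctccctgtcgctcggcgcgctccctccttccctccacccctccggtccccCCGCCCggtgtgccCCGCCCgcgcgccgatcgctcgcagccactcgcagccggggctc
Foxd2: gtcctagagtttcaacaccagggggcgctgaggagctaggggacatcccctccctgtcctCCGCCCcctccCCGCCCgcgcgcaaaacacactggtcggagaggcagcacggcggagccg
Foxd3: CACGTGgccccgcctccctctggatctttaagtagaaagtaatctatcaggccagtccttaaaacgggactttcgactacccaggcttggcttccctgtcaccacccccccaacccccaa

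The 20 tested members differed in where they were highest. The group mean was highest in LinNegSca1Neg for 9 of them, in LinPos for 5, in Whole for 4, and in LinNeg (Foxo1) and LinNegSca1Pos (Foxp4) for 1 each. The moderated F test over the 5 groups called 17 of 20, all but Foxj2 (adjusted p = 0.0908), Foxk1 (0.181) and Foxk2 (0.323), in a table where it called 90.7% of all tested genes. All 44 members together reached 143 to 158 FPKM in LinNegSca1Neg. The same sum ranged from 111 to 129 over the LinNeg libraries, from 114 to 123 over LinPos, from 111 to 118 over Whole and from 83.7 to 102 over LinNegSca1Pos. The LinNegSca1Neg libraries thus held more forkhead FPKM than any other library, and the LinNegSca1Pos libraries less. These sums are not shares of a library's total. Total FPKM was unequal, from 331870 in LinNegSca1Neg replicate 1 to 553567 in LinNegSca1Pos replicate 3.

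Between LinPos and LinNeg, 4 members were higher in LinPos and 7 lower, where 25.3% of all tested genes were higher and 25.8% lower. Between LinNegSca1Pos and LinNegSca1Neg, 1 member was higher and 10 were lower, against 22.4% and 32.1% of all genes. LinNegSca1Pos against LinPos gave 4 higher and 4 lower, against 29.0% and 30.9%. LinNegSca1Neg against LinPos gave 9 higher and 2 lower, against 31.5% and 23.0%. Against Whole, LinPos had 10 members higher and 4 lower, beside 48.8% and 22.9% of all genes, and LinNeg had 13 higher and 2 lower, beside 47.5% and 21.8%. The median log2 difference of all tested genes was 0.45 for LinPos against Whole and 0.43 for LinNeg against Whole, and for calls against Whole the value relative to this shift is given too. Of all calls, 68% in LinPos against Whole and 68.6% in LinNeg against Whole were higher, but 51.7% and 47.7% after median-of-ratios scaling and 52.3% and 52% after quantile normalization. Smaller shifts were 0.13 for LinNegSca1Neg against LinPos and -0.16 for LinNegSca1Pos against LinNegSca1Neg. In bulk RNA, fewer cells of a type and less RNA per cell cannot be told apart.

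**Figure D1:**
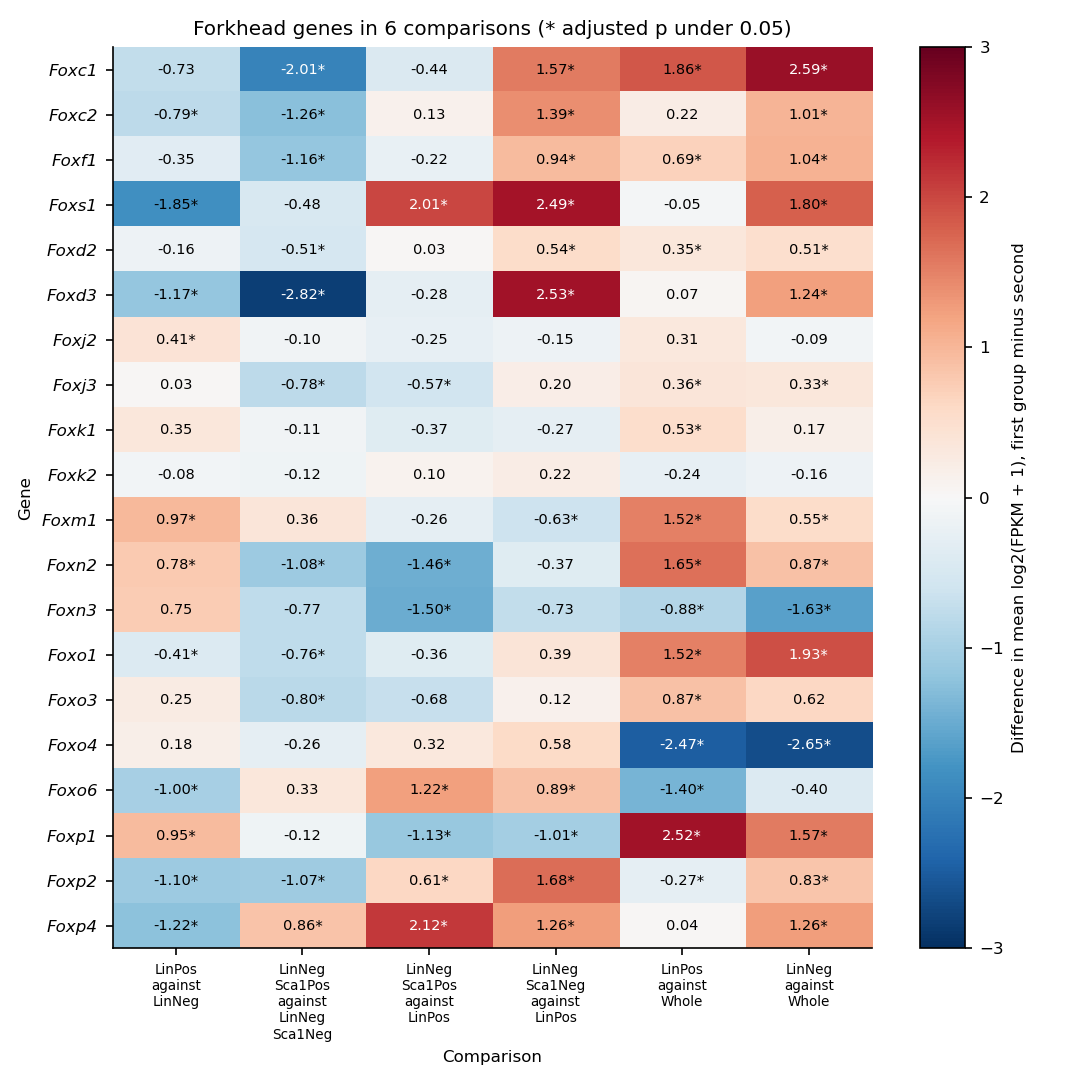
Differences in mean log2(FPKM + 1), first group minus second, for the 20 tested forkhead genes (rows) in 6 comparisons (columns); colour and printed value give the difference and an asterisk marks an adjusted p under 0.05. The column of LinNegSca1Pos against LinNegSca1Neg holds 10 lower calls and 1 higher call, Foxp4 at 0.86, and the Foxo4 row is lowest in both comparisons with Whole.

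Labelled cell types were checked by summed FPKM of marker genes. The 6 endothelial markers summed to 473 to 1282 in LinPos and to at most 49.3 in the lineage-negative groups, and 6 macrophage markers to 3013 to 5214 against at most 101. The 6 mesenchymal progenitor markers summed to 10251 to 14219 in LinNegSca1Pos and to 1616 to 2959 in LinNegSca1Neg. All 6 markers of each of pericytes and smooth muscle, Schwann cells, tenocytes, satellite cells and myofibres were called higher in LinNegSca1Neg than in LinNegSca1Pos. Myofibre markers summed to 62015 to 78324 in Whole, 1272 to 9222 in LinNeg, 2543 to 19528 in LinNegSca1Neg, 52.4 to 169 in LinPos and 52.5 to 246 in LinNegSca1Pos. LinNegSca1Pos replicate 1 held the most Schwann cell markers of its group, 132 FPKM against 7.31 in the lowest. It also held the most macrophage, endothelial, lymphocyte, pericyte and smooth muscle, and myofibre markers of that group. No listed marker was at 0.001 in every library of a group, except 1 of 6 lymphocyte markers in Whole. Total counts were not given. One fragment was worth up to 4.98 times as much in the shallowest library, LinNegSca1Pos replicate 3, as in the deepest, estimated from the steps of low values.

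The vascular and perivascular members Foxc1, Foxc2, Foxf1 and Foxs1 had their highest means in LinNegSca1Neg. Foxc1, a regulator of pericyte and vessel formation, was 0.731, 0.513, 0.475 and 0.467 FPKM in Whole, 2.41, 3.52, 7.38 and 6.565 in LinPos and 4.11, 6.56, 9.535 and 17.3 in LinNeg. It reached 9.49, 12.3, 19.97 and 24.8 in LinNegSca1Neg and 3.48, 3.085 and 2.86 in LinNegSca1Pos. Each LinNegSca1Neg library lay above each LinPos and LinNegSca1Pos library, and each Whole library lay below all others. Foxc1 was lower in LinNegSca1Pos than in LinNegSca1Neg (log2 difference -2.01 ± 0.38, adjusted p = 2.3e-04), a 5.31-fold ratio of mean FPKM. It was higher in LinNegSca1Neg than in LinPos (1.57 ± 0.35, adjusted p = 8.7e-04). Against Whole, LinNeg was higher by 2.59 ± 0.35 (adjusted p = 3.1e-06), which is 2.16 above the shift of all genes, and LinPos by 1.86 ± 0.35 (1.1e-04), or 1.40 above it. LinPos and LinNeg overlapped and did not pass the test (-0.73 ± 0.35, adjusted p = 0.0922). With the replicate number as a block, the same difference passed at adjusted p = 0.0291. It also passed within replicates 1 and 2 alone (-0.66, adjusted p = 0.0209), within replicates 3 and 4 alone (-0.80, 0.0127), without LinPos replicate 3 (0.0467) and without LinNeg replicate 1 (0.0197). LinNegSca1Pos against LinPos gave -0.44 ± 0.38 (adjusted p = 0.336), but -0.95 with LinPos replicates 3 and 4 alone against all 3 LinNegSca1Pos libraries (0.00156). No other alternative passed, and the difference ran from -0.95 to 0.07 over all of them.

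Foxc2, the close relative of Foxc1 known for lymphatic vessel and valve formation, stood lower by FPKM. It was 0.0965, 0.001, 0.236 and 0.0387 FPKM in Whole, 0.167, 0.171, 0.422 and 0.333 in LinPos and 0.6335, 0.896, 1.65 and 1.85 in LinNeg. It was 1.04, 1.83, 2.84 and 4.57 in LinNegSca1Neg and 0.4998, 0.4325 and 0.241 in LinNegSca1Pos. The LinNegSca1Neg libraries did not overlap those of LinPos or LinNegSca1Pos. Outside LinNegSca1Neg, Foxc2 reached 1 FPKM only in LinNeg replicates 3 and 4. It thus passed the filter on low values only with the libraries of LinNegSca1Neg, where it was highest. The tests of that group are therefore not independent of the filter. Foxc2 was lower in LinNegSca1Pos than in LinNegSca1Neg by a log2 difference of -1.26 ± 0.25 (adjusted p = 4.1e-04). It was also lower in LinPos than in LinNeg (-0.79 ± 0.24, adjusted p = 0.00858), a call lost after quantile normalization (0.0502). It was higher in LinNegSca1Neg than in LinPos (1.39 ± 0.24, adjusted p = 5.5e-05) and in LinNeg than in Whole (1.01 ± 0.24, adjusted p = 9.3e-04, 0.58 above the shift).

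Foxf1, a factor of lung and gut mesenchyme and of endothelium, was 0.0729, 0.0786, 0.001 and 0.0875 FPKM in Whole, 0.461, 0.795, 0.7055 and 0.886 in LinPos and 1.16, 1.12, 0.499 and 2.28 in LinNeg. In LinNegSca1Neg it was 2.64, 3.34, 1.29 and 2.16 and in LinNegSca1Pos 0.6545, 0.2303 and 0.545. All 4 LinNegSca1Neg libraries were above the 3 LinNegSca1Pos libraries, and the log2 difference was -1.16 ± 0.22 (adjusted p = 2.7e-04). LinNegSca1Neg also exceeded LinPos (0.94 ± 0.21, adjusted p = 7.3e-04), though not within replicates 3 and 4 alone (0.58, adjusted p = 0.124). Both LinPos and LinNeg were above Whole (0.69 ± 0.21, adjusted p = 0.00618, and 1.04 ± 0.21, adjusted p = 2.2e-04), by 0.23 and 0.61 beyond the shift of all genes. With a pseudocount of 5 the call of LinPos over Whole was lost (adjusted p = 0.0563). LinPos did not differ from LinNeg by the test (-0.35 ± 0.21, adjusted p = 0.168), except without LinNeg replicate 3 (0.0337).

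Foxs1, a single-exon forkhead gene known from sensory neurons and perivascular cells, marked both Sca1 fractions. It was 0.6475, 1.23, 0.698 and 1.28 FPKM in Whole and 1.39, 1.05, 0.715 and 0.481 in LinPos. It was 5.925, 6.47, 6.05 and 4.79 in LinNeg, 11.25, 15.1, 7.66 and 6.275 in LinNegSca1Neg and 6.16, 4.69 and 9.73 in LinNegSca1Pos. The lineage-negative libraries of all 3 groups lay above those of LinPos and Whole. The log2 difference was -1.85 ± 0.24 for LinPos against LinNeg (adjusted p = 2.6e-06), 2.01 ± 0.26 for LinNegSca1Pos against LinPos (2.2e-06) and 2.49 ± 0.24 for LinNegSca1Neg against LinPos (5.4e-08). LinNeg exceeded Whole by 1.80 ± 0.24 (adjusted p = 2.5e-06), 1.37 above the shift. The Sca1 fractions overlapped (-0.48 ± 0.26, adjusted p = 0.13), and their difference ran from -0.89 to -0.06 over all alternatives. They passed the test without LinNegSca1Neg replicate 4 (0.0423) and without LinNegSca1Pos replicate 3 (0.0367). They also passed with LinNegSca1Neg replicates 1 and 2 alone against all 3 LinNegSca1Pos libraries (0.00779). With LinNegSca1Neg replicates 3 and 4 alone they did not pass the test (0.838). LinPos and Whole did not pass it either (-0.05, 95% interval -0.56 to 0.46, -0.50 relative to the shift), except after quantile normalization (-0.51, adjusted p = 0.0457).

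Pericyte and smooth muscle markers summed to 1696 to 2524 FPKM in LinNegSca1Neg, the group where Foxc1, Foxc2, Foxf1 and Foxs1 were highest. The sum was 609 to 1281 in LinNeg, 177 to 467 in LinPos, 180 to 217 in Whole and 25.9 to 97.2 in LinNegSca1Pos. In LinNegSca1Neg it lay mostly in Acta2 and Myh11 (means of 1589 and 390 FPKM). Single markers did not all follow the sum. Of the 6, 1 was called higher and 3 lower in LinNegSca1Pos than in LinPos. Abcc9 averaged 45.3 FPKM in Whole against 17.2 in LinNegSca1Neg. In LinNegSca1Pos, where the sum was lowest, Foxs1 was 6.86 ± 2.59 FPKM, while Foxc1 was 3.14 ± 0.31. The sums of Schwann cell, tenocyte and satellite cell markers were also highest in LinNegSca1Neg. The part of any of these cells in the differences was not tested. Of 16 endothelial and vascular genes tied to FoxC or FoxF factors, 11 were higher and 3 lower in LinPos than in LinNeg, with a median log2 difference of 2.80 beside 0.00 over all genes. The largest were Kdr, a VEGF receptor (137 ± 78.6 against 1.44 ± 0.348 FPKM), Cdh5, the cadherin of endothelial junctions (307 ± 115 against 6.05 ± 0.93), and Flt1, another VEGF receptor (91.6 ± 34.5 against 1.16 ± 0.157). In LinNegSca1Neg against LinPos, 3 of the 16 were higher and 10 lower, with a median of -2.63. Kdr and Cdh5 are also among the endothelial markers above, and LinPos was sorted for cells of endothelial and blood origin. These counts cannot be read as FoxC or FoxF activity, which here cannot be told apart from the sort and was not tested.

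The neural crest factor Foxd3 had the largest log2 difference of the 20 tested members between the Sca1 fractions. It was 3.42, 5.12, 9.86 and 8.84 FPKM in LinNegSca1Neg and 0.122, 0.001 and 0.001 in LinNegSca1Pos. It was 1.14, 1.57, 1.805 and 3.22 in LinNeg, 0.3, 0.154, 0.559 and 0.0965 in LinPos and 0.261, 0.201, 0.182 and 0.179 in Whole. Every LinNegSca1Neg library lay above every library of the other groups, and 2 of the 3 LinNegSca1Pos libraries were at the lowest listed value. LinNegSca1Pos was lower than LinNegSca1Neg by a log2 difference of -2.82 ± 0.26 (adjusted p = 6.2e-08). LinNegSca1Neg exceeded LinPos by 2.53 ± 0.24 (adjusted p = 4.3e-08), and LinPos was below LinNeg by -1.17 ± 0.24 (4.4e-04). LinNeg exceeded Whole by 1.24 ± 0.24 (adjusted p = 1.7e-04), 0.81 above the shift of all genes. The 6 Schwann cell markers, genes of neural crest-derived glia, summed to 1781 to 2863 FPKM in LinNegSca1Neg, 643 to 969 in LinNeg, 28.5 to 43.9 in LinPos, 53 to 57.6 in Whole and 7.31 to 132 in LinNegSca1Pos. LinNegSca1Pos replicate 1, with 132, was also the library of that group with Foxd3 above 0.001. It likewise held the most pericyte and smooth muscle, myofibre, lymphocyte, macrophage and endothelial markers of its group, so it singles out no cell type. The sums of pericyte and smooth muscle, tenocyte and satellite cell markers were also highest in LinNegSca1Neg. The part of Schwann cells or of these others in the Foxd3 difference was not tested.

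Foxd2, a gene of mesenchyme and kidney development, was low. It was 0.218, 0.181, 0.001 and 0.0807 FPKM in Whole, 0.193, 0.297, 0.461 and 0.799 in LinPos and 0.2505, 0.670, 0.951 and 0.572 in LinNeg. It was 1.10, 1.08, 1.04 and 1.06 in LinNegSca1Neg and 0.466, 0.398 and 0.502 in LinNegSca1Pos. The LinNegSca1Neg libraries lay close together and above every other library. Foxd2 passed the filter on low values through LinNegSca1Neg alone, the group where it was highest, so the tests of that group are not independent of the filter. LinNegSca1Neg was above LinNegSca1Pos (log2 difference -0.51 ± 0.15 for the latter against the former, adjusted p = 0.00763) and above LinPos (0.54 ± 0.14, adjusted p = 0.0025). Both calls were lost after quantile normalization (0.813 and 0.212). The calls over Whole were small, 0.35 ± 0.14 for LinPos (adjusted p = 0.0316, -0.11 relative to the shift) and 0.51 ± 0.14 for LinNeg (0.00312, 0.08 relative to it), and quantile normalization ended both (0.173 and 0.117). The former was also lost with each of Whole replicates 3 and 4 and LinPos replicates 3 and 4 left out (adjusted p from 0.0571 to 0.122, and 0.23 in place of 0.35 without LinPos replicate 4).

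**Figure D2:**
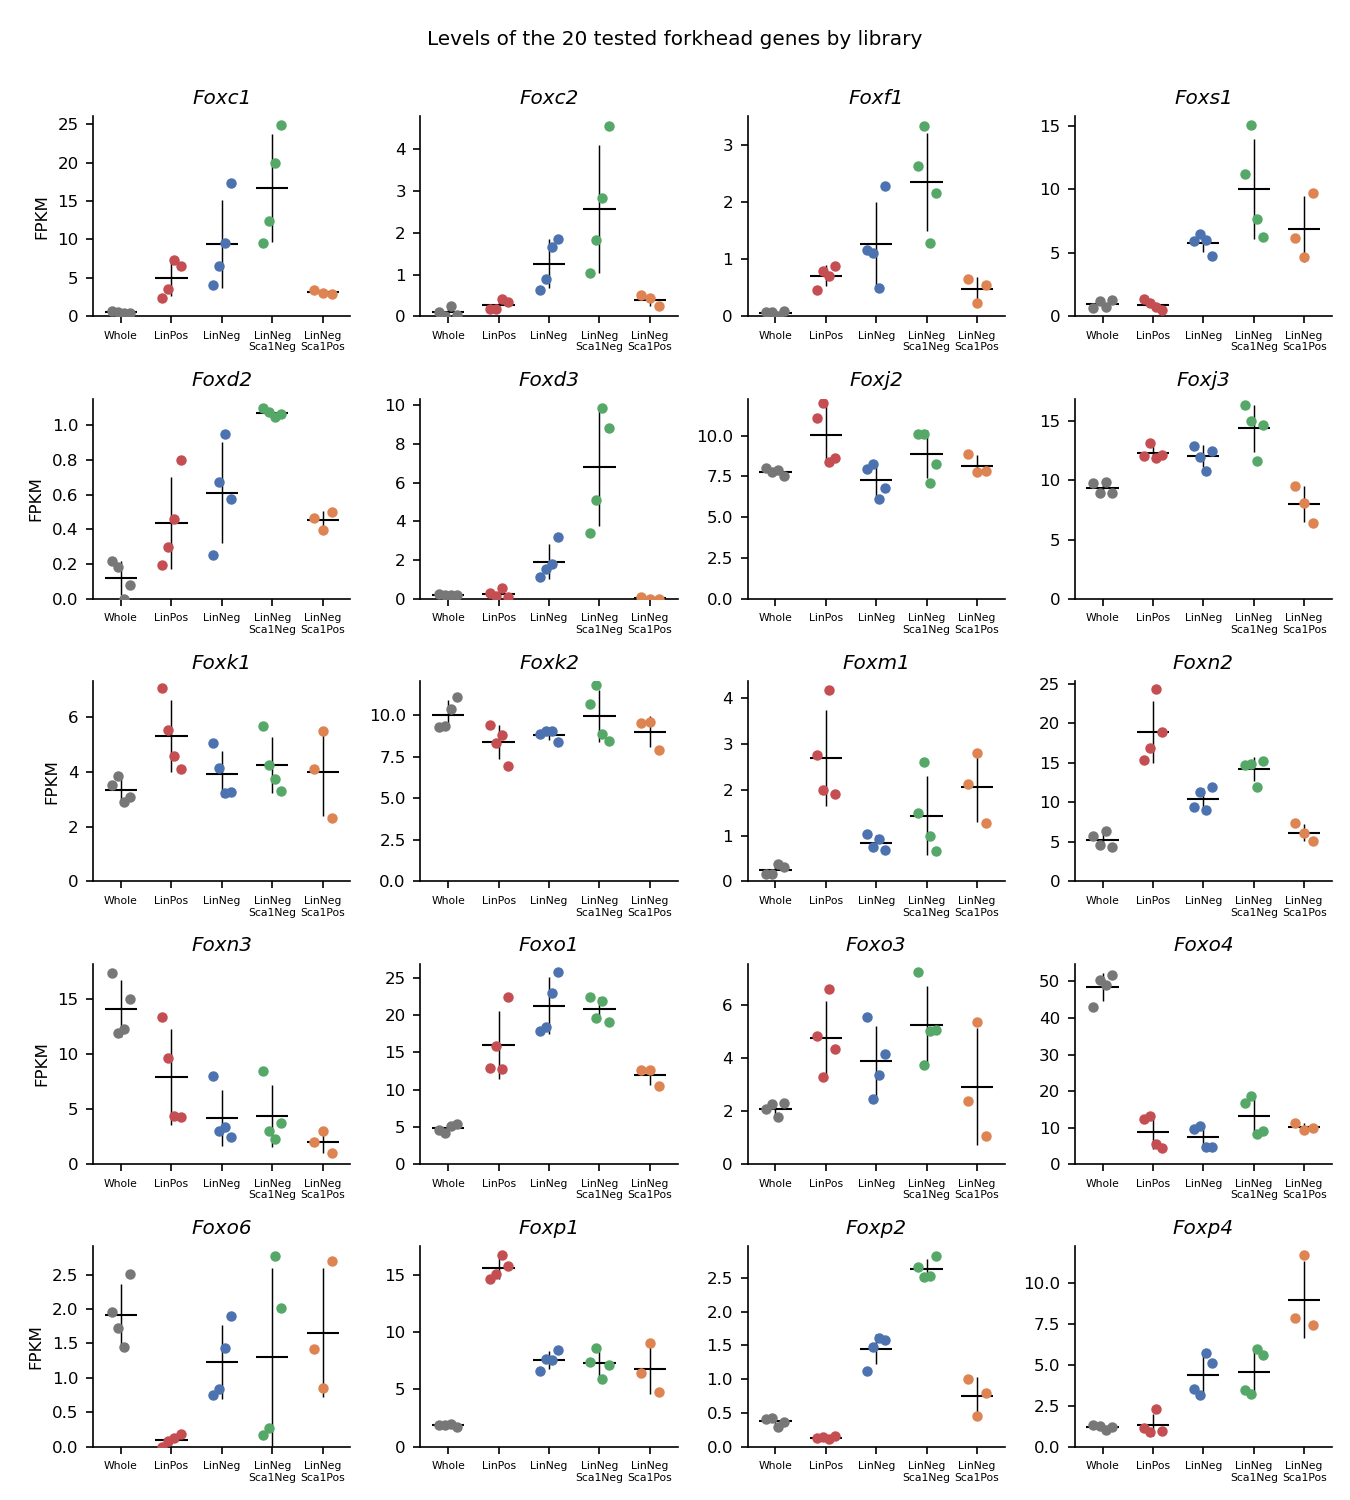
FPKM of the 20 tested forkhead genes, 1 panel per gene with its own axis from 0; points are libraries, horizontal lines means and vertical lines SD (n = 4, or 3 for LinNegSca1Pos). Foxd3 and Foxp2 show LinNegSca1Neg above every other library, Foxo4 shows Whole at 43.0 to 51.7 above all others, and Foxp1 shows LinPos at 14.6 to 16.7 above all others.

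Forkhead genes that are neighbours in the genome did not share a pattern throughout. On chromosome 8, the start of Foxc2 lies 31.8 kb and that of Foxl1 43.3 kb from the start of Foxf1. Foxf1 and Foxc2 both peaked in LinNegSca1Neg. Foxl1, a mesenchymal gene of the gut, reached only 0.178 FPKM but likewise in LinNegSca1Neg, where 3 of 4 libraries lay above 0.001, as in LinNeg, against 1 of 3 in LinNegSca1Pos and none in LinPos and Whole. On chromosome 13, Foxq1, Foxf2 and Foxc1 lie within 252 kb. Foxf2, a factor of pericyte and gut mesenchyme development, was 0.397, 0.739 and 0.559 FPKM in LinNegSca1Pos and 0.001, 0.126, 0.0323 and 0.187 in LinNegSca1Neg, so that the 2 groups did not overlap. In the fit without a filter on low values, Foxf2 was higher in LinNegSca1Pos by 0.52 ± 0.09 (adjusted p = 0.00017), the side opposite to both Foxc1 beside it and its paralog Foxf1. It was at most 0.0914 in Whole, 0.0441 in LinPos and 0.613 in LinNeg. Foxq1 was at most 0.0891 FPKM in any library. On chromosome 4, Foxe3 starts 18.9 kb from Foxd2 and was at 0.001 in all 19 libraries.

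**Figure D3:**
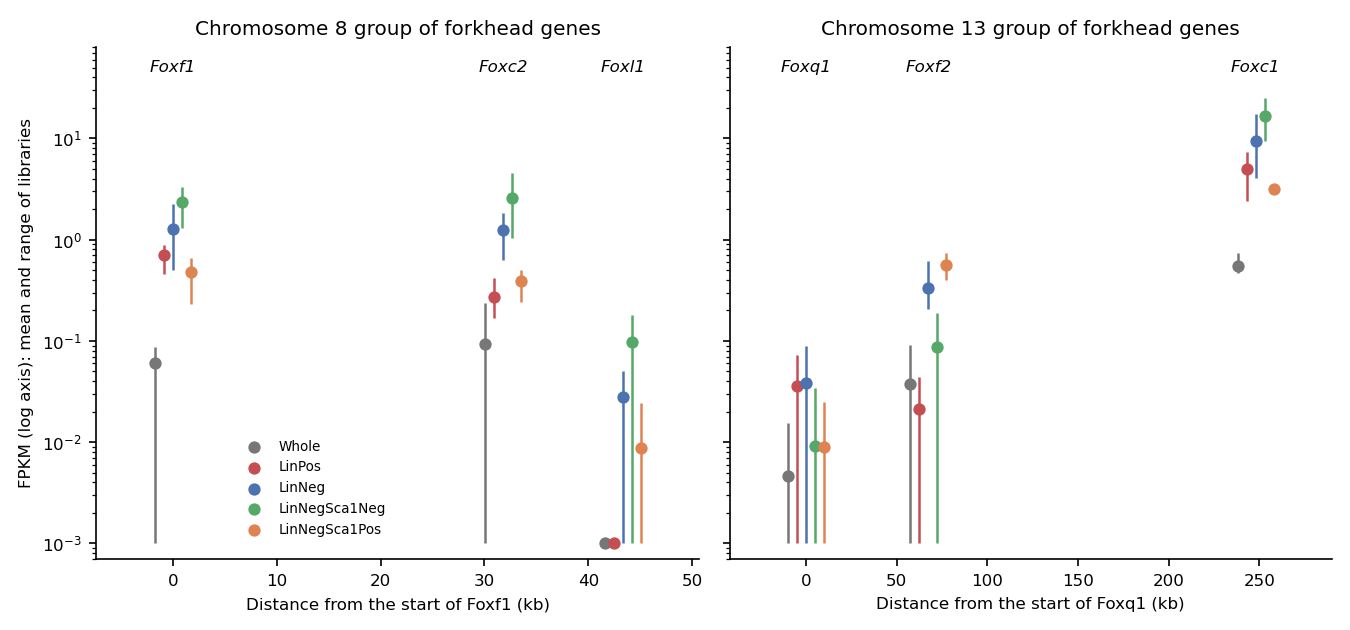
Mean FPKM (points, log axis) and range over libraries (lines) of forkhead genes in 2 groups of neighbours, placed by distance in kb from the first gene's start and coloured by group of libraries. Foxf1 and Foxc2 are highest in LinNegSca1Neg, while Foxf2 is highest in LinNegSca1Pos and Foxc1 in LinNegSca1Neg.

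Among the FoxO genes, Foxo4 set Whole apart. Foxo4 was 43.0, 50.5, 49.01 and 51.7 FPKM in Whole, 12.4, 13.1, 5.41 and 4.30 in LinPos and 9.695, 10.3, 4.63 and 4.64 in LinNeg. It was 16.6, 18.7, 8.17 and 9.065 in LinNegSca1Neg and 11.4, 9.41 and 9.89 in LinNegSca1Pos. The lowest Whole library was more than the highest of any other group. LinPos was lower than Whole by a log2 difference of -2.47 ± 0.33 (adjusted p = 1.9e-06), -2.92 relative to the shift of all genes. LinNeg was lower by -2.65 ± 0.33 (adjusted p = 9.6e-07), -3.08 relative to it. The fractions overlapped one another, and none of the 4 comparisons among them was called. With the replicate number as a block, the difference of 0.58 for LinNegSca1Neg against LinPos passed at adjusted p = 0.0438. It also passed within replicates 1 and 2 (0.44, adjusted p = 0.0259) and within replicates 3 and 4 (0.72, 0.00244). LinNegSca1Pos against LinPos gave 0.32 ± 0.35 (adjusted p = 0.447). It was 0.94 with LinPos replicates 3 and 4 alone against all 3 LinNegSca1Pos libraries (1.0e-04). No other alternative passed, and the difference ran from -0.29 to 0.94 over all of them. LinNegSca1Pos against LinNegSca1Neg gave -0.26 ± 0.35 (adjusted p = 0.559), and -0.73 with LinNegSca1Neg replicates 1 and 2 alone (5.5e-04). Again no other alternative passed, and the range was -0.73 to 0.22. The sign of both differences thus depended on the setting.

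Foxo1, the FoxO gene best known from insulin response, ran the other way. It was 4.60, 4.14, 5.17 and 5.32 FPKM in Whole, 12.85, 15.85, 12.8 and 22.4 in LinPos and 17.8, 18.4, 23.03 and 25.8 in LinNeg. It was 22.5, 19.7, 21.9 and 19.1 in LinNegSca1Neg and 12.7, 12.6 and 10.5 in LinNegSca1Pos. All 4 Whole libraries lay below the 15 others, and the LinNegSca1Pos libraries lay below those of LinNegSca1Neg. LinPos exceeded Whole by 1.52 ± 0.16 (adjusted p = 1.5e-07, 1.07 above the shift) and LinNeg did so by 1.93 ± 0.16 (8.7e-09, 1.5 above it). LinNegSca1Pos was below LinNegSca1Neg by a log2 difference of -0.76 ± 0.18 (adjusted p = 0.0016). LinPos was slightly below LinNeg (-0.41 ± 0.16, adjusted p = 0.0468), a call lost when LinPos replicate 1, 2 or 3 or LinNeg replicate 3 or 4 was left out (0.0728 to 0.15), and after median-of-ratios scaling (0.0966). That call was also lost within replicates 1 and 2 alone (-0.32, adjusted p = 0.137) and within replicates 3 and 4 alone (-0.50, 0.0909). A fit of LinPos and LinNeg alone gave an adjusted p of 0.155. LinNegSca1Neg against LinPos missed the threshold (0.39 ± 0.16, adjusted p = 0.053) and passed it with the replicate block (0.0409) and without LinPos replicate 4 (0.00398). LinNegSca1Pos against LinPos (-0.36 ± 0.18, adjusted p = 0.0867) passed without LinPos replicate 1 (0.046) or 3 (0.0455).

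Foxo3, a FoxO gene of atrophy and longevity, was lower by FPKM than Foxo1 in every library. It was 2.07, 2.25, 1.77 and 2.29 FPKM in Whole, 4.83, 3.30, 6.63 and 4.34 in LinPos and 5.565, 2.46, 3.37 and 4.16 in LinNeg. It was 7.24, 3.73, 5.04 and 5.05 in LinNegSca1Neg and 2.37, 5.355 and 1.06 in LinNegSca1Pos, whose libraries spread most. LinPos exceeded Whole by 0.87 ± 0.28 (adjusted p = 0.00963, 0.42 above the shift), but not after median-of-ratios scaling (0.201) or quantile normalization (0.443). LinNegSca1Pos was below LinNegSca1Neg by -0.80 ± 0.30 (adjusted p = 0.0327). That value was -0.41 without LinNegSca1Pos replicate 3 (0.26) and -1.22 without LinNegSca1Pos replicate 2 (0.00155). The call was also lost after median-of-ratios scaling (0.0796) and quantile normalization (0.129), without LinNegSca1Pos replicate 1 (0.0814) and without LinNegSca1Neg replicate 1 (0.0924), 3 (0.0514) or 4 (0.0531).

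Foxo6, the FoxO gene known from brain, was 1.95, 1.73, 1.45 and 2.51 FPKM in Whole, 0.001, 0.08225, 0.131 and 0.180 in LinPos and 0.756, 0.845, 1.43 and 1.9 in LinNeg. It was 0.171, 0.275, 2.77 and 2.01 in LinNegSca1Neg and 1.42, 0.854 and 2.69 in LinNegSca1Pos. LinPos was thus below every Whole, LinNeg and LinNegSca1Pos library, while LinNegSca1Neg split into a low and a high pair. LinPos was lower than LinNeg (-1.0 ± 0.31, adjusted p = 0.0122) and lower than Whole (-1.40 ± 0.31, adjusted p = 5.9e-04, -1.85 relative to the shift). LinNegSca1Pos exceeded LinPos by 1.22 ± 0.34 (adjusted p = 0.00453). LinNegSca1Neg exceeded LinPos by 0.89 ± 0.31 (adjusted p = 0.0222), which was 0.59 without LinNegSca1Neg replicate 3 (0.10), 0.70 without LinNegSca1Neg replicate 4 (0.0825), 0.84 without LinPos replicate 1 (0.0508) and 0.23 within replicates 1 and 2 alone (0.487).

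As a share of the summed FPKM of the 4 FoxO genes, Foxo4 was 84.6% ± 1.36 in Whole and 29.2% ± 13.7 in LinPos, 22.0% ± 9.93 in LinNeg, 31.8% ± 10.1 in LinNegSca1Neg and 38.4% ± 4.38 in LinNegSca1Pos. Foxo1 was 8.39% ± 0.90 in Whole and the largest share in every group of sorted cells, from 44.5% ± 1.05 in LinNegSca1Pos to 62.9% ± 9.32 in LinNeg. Together the 4 genes reached 51.6 to 61.8 FPKM in Whole. Their sum was 35.2 to 46.5 FPKM in LinNegSca1Neg and 24.1 to 28.2 in LinNegSca1Pos, with LinNeg from 32 to 36.5 and LinPos from 25.0 to 32.3. The Whole libraries, highest in Foxo4, also held 62015 to 78324 FPKM of 6 myofibre markers. Among LinNeg libraries that sum was highest in replicate 3 and among LinNegSca1Neg libraries in replicate 4. Replicates 3 and 4 were the low pair for Foxo4 in both groups. They were so in LinPos too, where the myofibre sum was only 52.4 to 169, so this order does not separate myofibre RNA from replicate number. The part of myofibre RNA in the Foxo4 level was not tested.

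**Figure D4:**
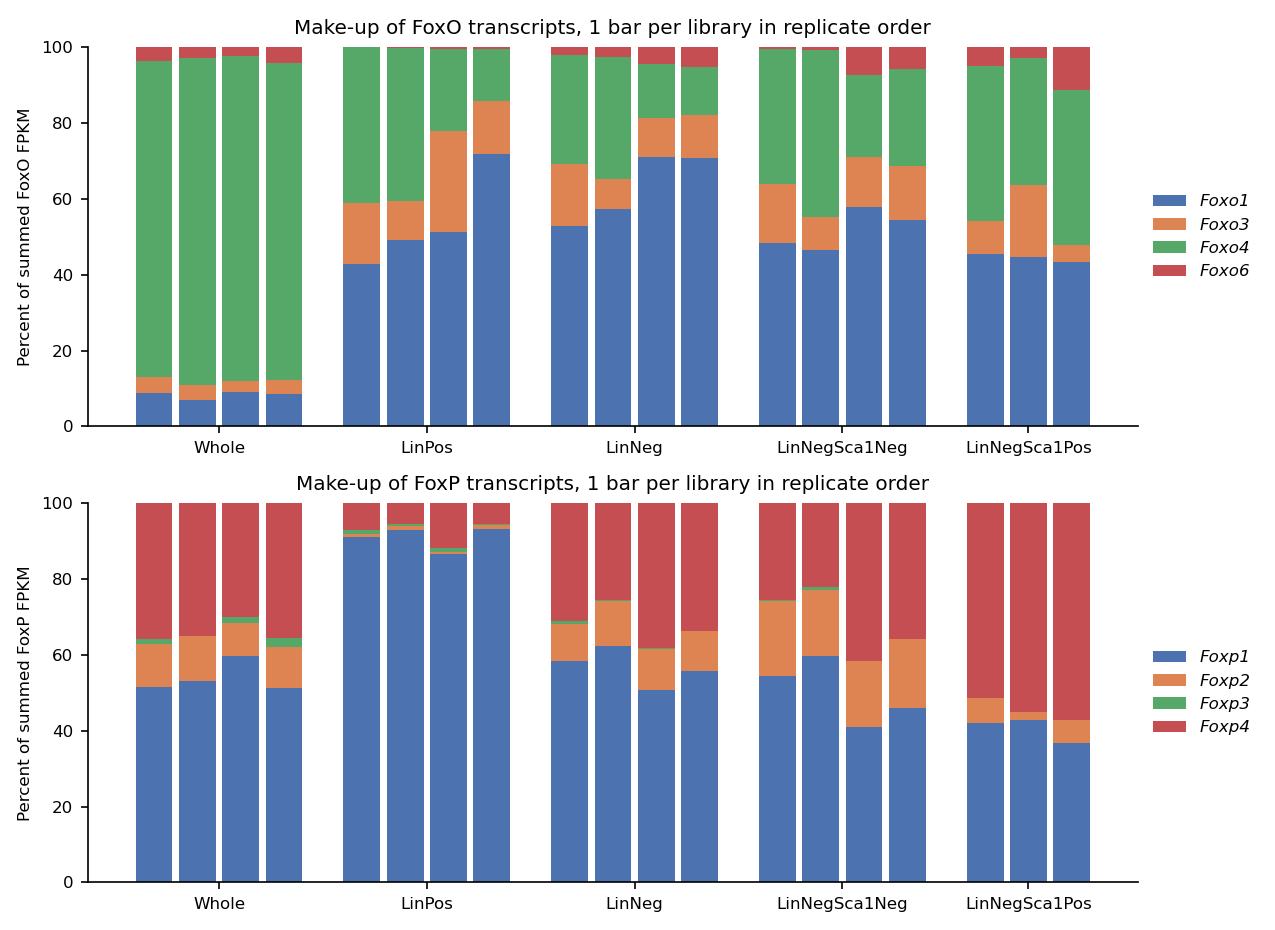
Percent of the summed FPKM of the 4 FoxO genes (top) and 4 FoxP genes (bottom) held by each gene, 1 bar per library in replicate order within each group. Foxo4 holds 83.3% to 86.1% in Whole and at most 44.1% in the sorted libraries, and Foxp4 holds 51.3% to 57.2% in LinNegSca1Pos and 5.44% to 11.9% in LinPos.

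Genes known to act upstream or downstream of FoxO were also counted. Of 12 FoxO targets of muscle atrophy, 7 were lower and 3 higher in LinPos than in Whole, with a median log2 difference of -0.61 beside 0.45 over all genes. The largest were Trim63 (0.0216 ± 0.0138 against 110 ± 20.8 FPKM) and Fbxo32 (2.14 ± 0.875 against 44 ± 9.64), the muscle ubiquitin ligases, and Bnip3, a mitophagy receptor (23.9 ± 5.93 against 165 ± 31.1). LinNeg against Whole likewise had 7 lower and 3 higher, with a median of -0.68. Trim63 and Fbxo32 are expressed in myofibres, and Whole was the group with most myofibre marker RNA, whose part was not tested. In LinNegSca1Neg against LinPos 4 of the 12 were higher and 0 lower, with Trim63 at 4.41 ± 1.44 FPKM in LinNegSca1Neg. Of 20 other FoxO targets, 13 were higher and 3 lower in LinPos than in Whole (median 1.39) and 11 higher and 4 lower in LinNeg than in Whole (median 0.78). Those with the largest difference included Pdk4, a brake on glucose oxidation, at 310 ± 193 FPKM in Whole and 1.59 ± 0.593 in LinPos, and Klf2, an endothelial and leukocyte factor, at 4.33 ± 2.09 and 309 ± 195. Between the Sca1 fractions, 9 of these 20 were lower and 1 higher in LinNegSca1Pos, with a median of -0.58 beside -0.16 over all genes. There Pdk4 was 4.16 ± 1.77 against 31.3 ± 12.2 FPKM and the cell cycle inhibitor Cdkn1b 27.5 ± 1.89 against 88.4 ± 14.6.

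Of 20 regulators of FoxO, which are mainly members of the insulin, PI3 kinase and Akt pathway, 14 were lower and 3 higher in LinNegSca1Pos than in LinPos (median -0.83 beside -0.01), and 13 lower and 2 higher than in LinNegSca1Neg (median -0.70 beside -0.16). Against LinPos the largest were the PI3 kinase subunits Pik3cb, 0.339 ± 0.0685 against 13.7 ± 1.16 FPKM, and Pik3cd, 1.42 ± 0.298 against 15.2 ± 6.35. Against LinNegSca1Neg, Sirt1, a deacetylase of FoxO, was lower at 6.61 ± 1.10 against 15.3 ± 3.42 FPKM. Akt2 was the opposite, with 50.5 ± 1.03 against 24.1 ± 4.75. LinPos against LinNeg gave 9 higher and 4 lower of the 20, with Irs1, an adaptor of the insulin receptor, at 0.971 ± 0.239 FPKM in LinPos and 11.6 ± 1.31 in LinNeg.

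The tested FoxP genes, repressors that act as dimers, each had their highest mean in another group. Foxp1, a factor of B cells, monocytes and heart, was 1.89, 1.91, 1.999 and 1.76 FPKM in Whole, 14.6, 15.04, 16.7 and 15.8 in LinPos and 6.59, 7.68, 7.58 and 8.43 in LinNeg. It was 7.43, 8.62, 5.89 and 7.15 in LinNegSca1Neg and 6.43, 9.05 and 4.765 in LinNegSca1Pos. LinPos lay above every other library and Whole below every other, while the 3 lineage-negative groups overlapped. Foxp1 was higher in LinPos than in LinNeg (0.95 ± 0.15, adjusted p = 2.7e-05), and lower in LinNegSca1Pos (-1.13 ± 0.16, 8.2e-06) and LinNegSca1Neg (-1.01 ± 0.15, 1.3e-05) than in LinPos. LinPos exceeded Whole by 2.52 ± 0.15 (adjusted p = 4.1e-11, 2.06 above the shift) and LinNeg by 1.57 ± 0.15 (3.8e-08, 1.14 above it). Between the Sca1 fractions the difference was -0.12 with a 95% interval of -0.47 to 0.23.

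Foxp4, a paralog of Foxp1 studied in lung and T cells, was 1.32, 1.26, 1.003 and 1.22 FPKM in Whole, 1.16, 0.8805, 2.30 and 0.961 in LinPos and 3.52, 3.17, 5.70 and 5.085 in LinNeg. It was 3.48, 3.20, 5.98 and 5.59 in LinNegSca1Neg and 7.84, 11.7 and 7.44 in LinNegSca1Pos. The LinNegSca1Pos libraries lay above all others. Foxp4 was the 1 member called higher in LinNegSca1Pos than in LinNegSca1Neg (0.86 ± 0.24, adjusted p = 0.00504), at 8.99 ± 2.34 against 4.56 ± 1.43 FPKM. With LinNegSca1Neg replicates 3 and 4 alone against all 3 LinNegSca1Pos libraries that difference was 0.53 (adjusted p = 0.0562). LinNegSca1Pos exceeded LinPos by 2.12 ± 0.24 (adjusted p = 3.6e-07), LinNegSca1Neg did so by 1.26 ± 0.22 (7.0e-05), and LinPos was below LinNeg by -1.22 ± 0.22 (1.1e-04). LinNeg exceeded Whole by 1.26 ± 0.22 (adjusted p = 5.2e-05, 0.83 above the shift), and LinPos against Whole was 0.04 with a 95% interval of -0.42 to 0.51, or -0.41 relative to the shift.

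Foxp2, the gene known from speech and motor circuits, was 0.414, 0.428, 0.2905 and 0.366 FPKM in Whole, 0.122, 0.148, 0.107 and 0.164 in LinPos and 1.12, 1.48, 1.61 and 1.58 in LinNeg. It was 2.665, 2.51, 2.52 and 2.83 in LinNegSca1Neg and 1.005, 0.448 and 0.793 in LinNegSca1Pos. LinNegSca1Neg lay above and LinPos below every other library. LinNegSca1Neg exceeded LinPos by 1.68 ± 0.11 (adjusted p = 3.2e-10), and LinNegSca1Pos did so by 0.61 ± 0.12 (2.2e-04). LinNegSca1Pos was below LinNegSca1Neg by -1.07 ± 0.12 (adjusted p = 6.9e-07), and LinPos was below LinNeg by -1.10 ± 0.11 (8.8e-08). LinNeg exceeded Whole by 0.83 ± 0.11 (adjusted p = 2.5e-06, 0.40 above the shift). LinPos was below Whole by -0.27 ± 0.11 (adjusted p = 0.0323, -0.73 relative to the shift), a call lost when Whole replicate 1, 2 or 4 or LinPos replicate 1, 2 or 3 was left out (0.0526 to 0.0733). Tenocyte and satellite cell markers, which summed to 2439 to 4474 and 387 to 613 FPKM in LinNegSca1Neg, were highest in the group where Foxp2 was. So were Schwann cell markers (1781 to 2863) and pericyte and smooth muscle markers (1696 to 2524). These sums do not separate the cell types, whose part in the Foxp2 level was not tested.

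By share of FoxP FPKM, Foxp1 made up 90.9% ± 3.05 in LinPos, 53.9% ± 3.96 in Whole, 56.8% ± 4.82 in LinNeg and 50.3% ± 8.46 in LinNegSca1Neg. In LinNegSca1Pos it held 40.5% ± 3.32 and Foxp4 54.5% ± 3.00. Foxp3, the master factor of regulatory T cells, did not pass the filter on low values. It was 0.162, 0.1245, 0.190 and 0.0363 FPKM in LinPos, at most 0.0923 in any other library, and at most 1.01% of FoxP FPKM in LinPos. Of 9 tested genes of regulatory T cells, 6 were higher and 0 lower in LinPos than in LinNeg, with a median of 1.36. The largest were the cytokine Il10 (7.72 ± 1.24 against 0.0128 ± 0.0237 FPKM), the T cell receptor chain Cd3e (3.56 ± 3.55 against 0.109 ± 0.0963) and Tnfrsf18 (3.18 ± 1.31 against 0.421 ± 0.287). Lymphocyte markers summed to 29.2 to 93.6 FPKM in LinPos and to at most 12.1 elsewhere. Cd3e is among those markers, and LinPos was sorted for blood cells too. The counts of this list cannot be read as Foxp3 activity, which here cannot be told apart from the sort and was not tested.

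Foxm1, the forkhead factor of mitotic gene expression, was 0.1665, 0.170, 0.384 and 0.307 FPKM in Whole, 2.74, 1.99, 4.16 and 1.9 in LinPos and 1.03, 0.745, 0.935 and 0.681 in LinNeg. It was 1.49, 2.60, 0.984 and 0.656 in LinNegSca1Neg and 2.12, 2.79 and 1.28 in LinNegSca1Pos. LinPos lay above LinNeg and all groups lay above Whole, while LinPos overlapped both Sca1 fractions. LinPos exceeded LinNeg by 0.97 ± 0.22 (adjusted p = 0.00124) and Whole by 1.52 ± 0.22 (6.5e-06, 1.07 above the shift). LinNegSca1Neg was below LinPos by -0.63 ± 0.22 (adjusted p = 0.0233), which was lost without LinPos replicate 3 (0.0926), without LinNegSca1Neg replicate 3 (0.0684) or 4 (0.0943), and with the block in the compared groups only (0.0694). Within replicates 1 and 2 alone this difference was -0.16 (adjusted p = 0.612). A fit of the compared groups only, without the block, lost the call too (0.0875). LinNeg exceeded Whole by 0.55 ± 0.22 (adjusted p = 0.0338, 0.13 above the shift). This was lost after median-of-ratios scaling (0.122) and quantile normalization (0.339), and without Whole replicate 1 or 2 or LinNeg replicate 1 or 3 (0.0665 to 0.0766). The Sca1 fractions gave 0.36 ± 0.24 (adjusted p = 0.21), and from 0.00 to 0.73 over all alternatives. They passed without LinNegSca1Neg replicate 2 (0.57, 0.0378) but not with LinNegSca1Neg replicates 1 and 2 alone (0.998). Of 16 mitotic genes listed with Foxm1, 14 were higher and 0 lower in LinPos than in LinNeg (median 1.03), and 15 higher and 0 lower than in Whole (median 1.96 beside 0.45). The largest against LinNeg were the centromere histone Cenpa (17.7 ± 6.83 against 3.41 ± 2.10 FPKM), the proliferation marker Mki67 (13.5 ± 7.89 against 3.23 ± 2.49) and Birc5, survivin (17.4 ± 14.4 against 4.81 ± 4.82). In LinNegSca1Neg against LinPos, where Foxm1 was called lower, 2 of the 16 were higher and 5 lower. LinNegSca1Pos against LinPos gave 0 higher and 5 lower, and the Sca1 fractions 0 and 1. LinNeg against Whole gave 10 higher and 1 lower. These counts are not a measure of Foxm1 activity, which was not tested.

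Foxn2 and Foxn3, repressors related to the checkpoint factors of yeast, had opposite orders in LinPos and Whole. Foxn2 was 5.81, 4.61, 6.36 and 4.34 FPKM in Whole, 15.4, 16.9, 24.3 and 18.9 in LinPos and 9.48, 11.3, 9.08 and 12.01 in LinNeg. It was 14.7, 14.8, 11.9 and 15.2 in LinNegSca1Neg and 7.35, 6.10 and 5.12 in LinNegSca1Pos. LinPos lay above all others, LinNegSca1Neg overlapped LinNeg by 1 library, and LinNegSca1Pos overlapped Whole. Foxn2 was higher in LinPos than in LinNeg (0.78 ± 0.16, adjusted p = 4.0e-04) and Whole (1.65 ± 0.16, 3.1e-08, 1.2 above the shift). It was lower in LinNegSca1Pos than in LinPos (-1.46 ± 0.17, adjusted p = 7.6e-07) and LinNegSca1Neg (-1.08 ± 0.17, 4.0e-05). LinNeg exceeded Whole by 0.87 ± 0.16 (adjusted p = 9.2e-05, 0.44 above the shift), but not after median-of-ratios scaling (0.122). LinNegSca1Neg against LinPos gave -0.37 ± 0.16 (adjusted p = 0.0555) and passed without LinPos replicate 1 (0.0295). In LinPos, the group with most endothelial, macrophage and lymphocyte markers, Foxn2, Foxp1 and Foxm1 all had their highest means, and the part of those cells was not tested.

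Foxn3 was 17.3, 11.8, 12.3 and 14.9 FPKM in Whole, 13.3, 9.62, 4.396 and 4.27 in LinPos and 7.97, 3.03, 3.385 and 2.45 in LinNeg. It was 8.44, 2.98, 2.24 and 3.71 in LinNegSca1Neg and 1.98, 2.95 and 1.01 in LinNegSca1Pos. In LinPos, LinNeg and LinNegSca1Neg, replicate 1 was the highest library each time. LinNeg was below Whole by -1.63 ± 0.37 (adjusted p = 8.4e-04, -2.06 relative to the shift), and LinNegSca1Pos was below LinPos by -1.50 ± 0.40 (0.00373). LinPos was below Whole by -0.88 ± 0.37 (adjusted p = 0.0425, -1.34 relative to the shift), a call lost when any 1 Whole library or LinPos replicate 3 or 4 was left out (0.0503 to 0.136). With LinPos replicates 1 and 2 alone against all Whole libraries the difference was -0.28 (adjusted p = 0.522). LinPos against LinNeg gave 0.75 ± 0.37 (adjusted p = 0.108), with 0.022 under the block and 0.0257 without LinNeg replicate 1. LinNegSca1Neg against LinPos gave -0.73 ± 0.37 (adjusted p = 0.11), with 0.0232 under the block and 0.0215 without LinNegSca1Neg replicate 1.

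The FoxJ and FoxK genes varied least. Foxj3, a factor linked to mitochondrial biogenesis in muscle, was 9.76, 8.89, 9.88 and 8.93 FPKM in Whole, 12.03, 13.15, 11.9 and 12.1 in LinPos and 12.9, 11.99, 10.8 and 12.4 in LinNeg. It was 16.3, 14.98, 11.6 and 14.7 in LinNegSca1Neg and 9.497, 8.11 and 6.42 in LinNegSca1Pos. The LinNegSca1Pos libraries lay below those of the other sorted groups. Foxj3 was lower in LinNegSca1Pos than in LinNegSca1Neg (-0.78 ± 0.14, adjusted p = 1.1e-04) and LinPos (-0.57 ± 0.14, 0.00138). It was called higher in LinPos and LinNeg than in Whole (0.36 ± 0.13, adjusted p = 0.0164, and 0.33 ± 0.13, 0.0273), but relative to the shift of all genes these were -0.09 and -0.10. Their direction turned after median-of-ratios scaling (-0.21 and -0.28) and quantile normalization (-0.15 and -0.04). The call of LinNeg over Whole was also lost without Whole replicate 2 or 4 or LinNeg replicate 1 or 4 (0.057 to 0.0691).

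Foxj2, a broadly expressed paralog, was 8.01, 7.74, 7.87 and 7.545 FPKM in Whole, 11.1, 11.97, 8.38 and 8.63 in LinPos and 7.96, 8.255, 6.098 and 6.81 in LinNeg. It was 10.11, 10.07, 7.10 and 8.28 in LinNegSca1Neg and 8.88, 7.76 and 7.84 in LinNegSca1Pos. It was higher in LinPos than in LinNeg by 0.41 ± 0.14 (adjusted p = 0.0217), lost without LinPos replicate 1 or 2 or LinNeg replicate 3 or 4 (0.0523 to 0.0829). LinPos against Whole gave 0.31 ± 0.14 (adjusted p = 0.055), -0.14 relative to the shift, and passed without LinPos replicate 3 (0.0273) or 4 (0.0366). Its direction turned after median-of-ratios scaling (-0.25, 0.0738) and quantile normalization (-0.22, 0.0952). Foxk1, a factor of satellite cells and of the response to Akt and mTOR, was 3.51, 3.84, 2.89 and 3.09 FPKM in Whole, 7.07, 5.52, 4.57 and 4.11 in LinPos and 5.04, 4.14, 3.22 and 3.28 in LinNeg. It was 5.66, 4.26, 3.74 and 3.32 in LinNegSca1Neg and 4.12, 5.503 and 2.33 in LinNegSca1Pos. The 1 Foxk1 call was LinPos over Whole (0.53 ± 0.20, adjusted p = 0.0274, 0.07 relative to the shift). It was lost without Whole replicate 3 or 4 or LinPos replicate 1 or 2 (0.0566 to 0.10), and its direction turned after quantile normalization (-0.09). With the block, LinPos exceeded LinNeg in Foxk1 by 0.35 (adjusted p = 0.0443, against 0.163 without it). LinNegSca1Pos against LinPos gave -0.37 ± 0.22 (adjusted p = 0.155), and -0.59 without LinNegSca1Pos replicate 2 (0.0373).

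Foxk2, its paralog, was 9.31, 9.37, 10.37 and 11.1 FPKM in Whole, 9.38, 8.33, 8.81 and 6.97 in LinPos and 8.88, 9.02, 9.06 and 8.365 in LinNeg. It was 10.66, 11.8, 8.86 and 8.43 in LinNegSca1Neg and 9.53, 9.58 and 7.94 in LinNegSca1Pos. No comparison called Foxk2. The interval of LinPos against LinNeg was -0.34 to 0.19 and that of the Sca1 fractions -0.41 to 0.17. Against Whole the differences were -0.24 for LinPos and -0.16 for LinNeg, or -0.69 and -0.59 relative to the shift, and both were called lower after median-of-ratios scaling (-0.81 and -0.77) and quantile normalization (-0.75 and -0.53). Foxk2 held 61.5% ± 3.79 of the FoxK FPKM in LinPos and 75.0% ± 3.80 in Whole.

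Other members were low. Foxd1, a gene of stromal progenitors in the kidney, was 0.146, 0.281, 0.491 and 0.285 FPKM in LinNeg and 0.156, 0.242, 0.279 and 0.539 in LinNegSca1Neg, above each LinPos and Whole library, where it reached 0.0448. Foxj1, the switch of motile cilia, reached 0.213 in LinPos replicate 3 and was at 0.001 in all 4 Whole libraries. Of 7 tested genes of its ciliary program, 0 were higher and 4 lower in LinPos than in LinNeg (median -0.71), with the tubulin Tuba1a at 103 ± 13.9 against 321 ± 37.7 FPKM, Tekt2 at 0.288 ± 0.121 against 2.49 ± 0.785 and Rsph1 at 0.305 ± 0.0936 against 1.33 ± 0.974. Tuba1a is expressed in many cells without motile cilia. Foxa1, an endoderm factor, was 0.892 FPKM in LinNegSca1Pos replicate 1 and at most 0.0371 in every other library. That replicate also held the most Schwann cell, pericyte and smooth muscle, myofibre, lymphocyte, macrophage and endothelial markers of its group. Foxd4 reached 0.401 in LinPos replicate 3 and Foxr1 0.3995 in LinNegSca1Neg replicate 3. The highest library was 0.114 FPKM for Foxa3 and 0.118 for Foxr2. For Foxa2, Foxh1, Foxi2, Foxl2, Foxn1 and Foxn4 it was 0.0597, 0.0843, 0.0191, 0.084, 0.0278 and 0.0232. Foxb1, Foxb2, Foxe1, Foxe3, Foxi1 and Foxi3 were at 0.001 in every library.

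Within LinPos, LinNeg and LinNegSca1Neg, replicates 3 and 4 stood on 1 side of replicates 1 and 2 for 6 tested members. Foxc1, Foxc2 and Foxo6 were higher in both of replicates 3 and 4 in all 3 groups, which held for 11.0% of all tested genes. Foxj2, Foxk1 and Foxo4 were lower in both, which held for 21.4%. Foxo4 thus ran from 12.4 and 13.1 to 5.41 and 4.30 FPKM in LinPos, from 9.695 and 10.3 to 4.63 and 4.64 in LinNeg and from 16.6 and 18.7 to 8.17 and 9.065 in LinNegSca1Neg. The labels name no batch or day. LinNegSca1Neg held the highest Foxc1 value at each replicate number.

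**Figure D5:**
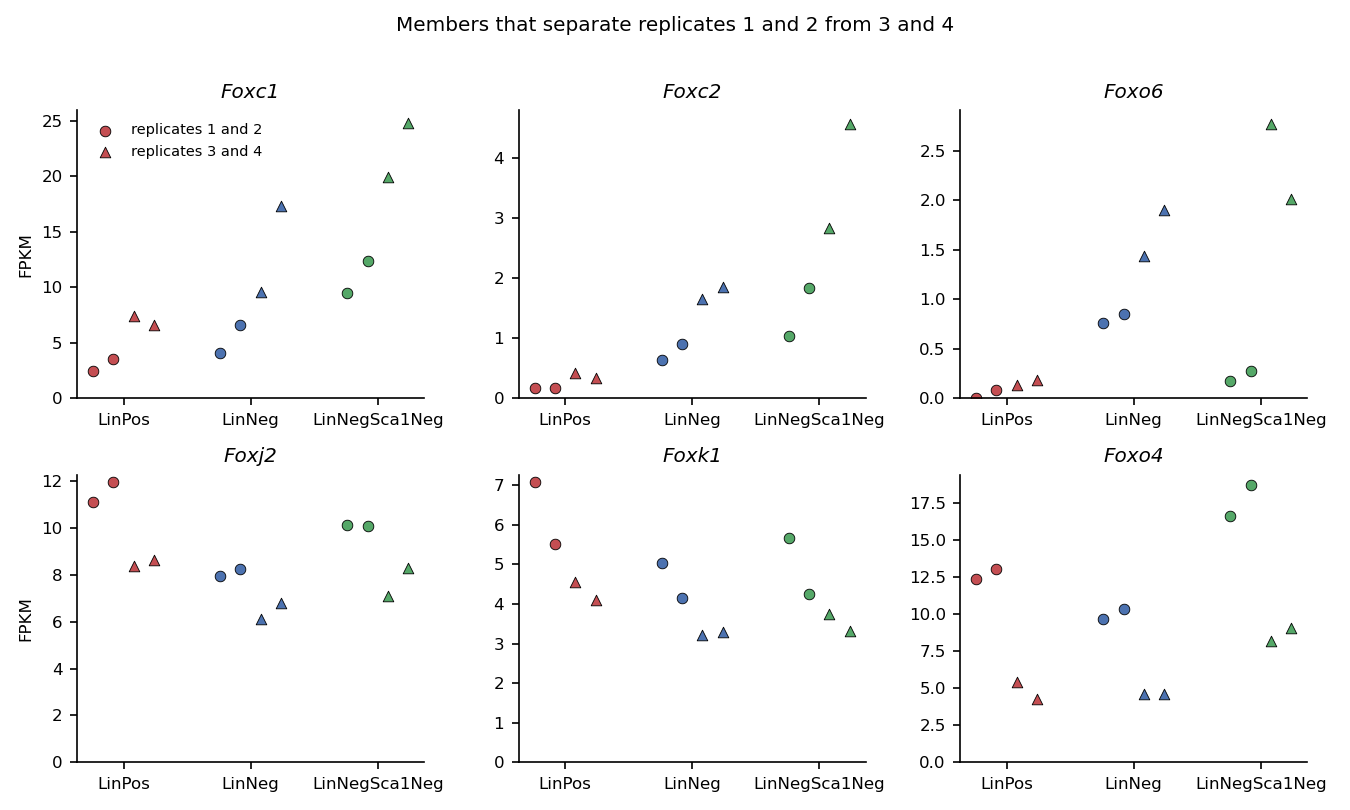
FPKM of 6 forkhead genes in LinPos, LinNeg and LinNegSca1Neg, with circles for replicates 1 and 2 and triangles for replicates 3 and 4; axes start at 0. In the top row the triangles lie above the circles in each group and in the bottom row below them, as for Foxo4 in LinNeg with 4.63 and 4.64 against 9.695 and 10.3.

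LinNeg is the parent of both Sca1 fractions. For 10 of 20 tested members its mean lay between theirs, as for Foxc1 (9.37 ± 5.73, between 3.14 ± 0.31 and 16.7 ± 7.02), Foxd3 (1.93 ± 0.90, between 0.0413 ± 0.0697 and 6.81 ± 3.04) and Foxp2 (1.45 ± 0.23, between 0.749 ± 0.281 and 2.63 ± 0.15). Foxs1 was an exception, with 5.81 ± 0.72 FPKM in LinNeg, below the 6.86 ± 2.59 of LinNegSca1Pos and the 10.06 ± 3.94 of LinNegSca1Neg. Foxo4 was another, with 7.32 ± 3.11 against 10.2 ± 1.03 and 13.1 ± 5.30. These differences from the parent were not tested.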

How the data were processed

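RNA of 19 libraries was measured. The authors deposited 1 FPKM table, whose values are gene expression scaled by transcript length and library size, with a floor of 0.001 and, for some genes, status words in place of values. The build was mm10 and the named tools were Cufflinks, TopHat2, Bowtie2 and bcl2fastq, per the submitters' processing notes, with no versions given. Columns were matched to libraries by name, and 4 columns that matched none were not used. Of 23846 genes, 311 held only status words and 14 some, and these were left out.

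Values were taken as log2(FPKM + 1). The 14043 genes with 1 FPKM or more in 3 or more libraries were tested with limma 3.58.1 (R 4.3.3, eBayes with trend) in 1 fit of 5 groups with 14 residual degrees of freedom, Benjamini-Hochberg adjustment over all tested genes and a threshold of 0.05. Every adjusted p in the text is limma's, and each interval is at 95%. The fit was tested on simulated data. Whether replicates are separate animals is not stated in the labels. Each p therefore reflects spread between libraries that could be technical.

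Members and gene lists were chosen with earlier results of these data known. All tested members are named with each library's values, and of each gene list at most the 3 genes with the largest log2 difference in a comparison. Values of some genes are not reported here. Same-numbered libraries deviated together in LinPos and LinNeg (correlations 0.44 to 0.70) and in LinNegSca1Neg and LinPos (0.36 to 0.67), so the replicate block is given there. Libraries of different numbers were not correlated in this way. Because replicates 3 and 4 stood apart from 1 and 2 for many genes, these values cannot tell pairing by number from 2 sets of replicates. Alternatives were other pseudocounts and filters, median-of-ratios scaling, quantile normalization, array weights, compared groups only, the block, replicates 1 and 2 or 3 and 4 alone of LinPos, LinNeg and LinNegSca1Neg (with all of Whole and LinNegSca1Pos) and each library left out. The block in the compared groups only was added after seeing the data. Total counts are not given, so depth is known only in relative terms, and low values are least precise in the shallowest library. Spearman correlations between replicates, across genes, were 0.957 to 0.979. Figures were drawn with matplotlib 3.10.9 in Python 3.11.15.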

Additional observations from a re-analysis of the deposited data

Results flagged for a closer look

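Of 80 groups of 4 libraries of tested members, 3 held a library whose gap to its nearest neighbour exceeded Dixon's 95% critical share of the group's range. Chance flags about 1 in 20 groups. Foxf1 was at 0.001 FPKM in Whole replicate 3, against 0.0729 to 0.0875 in the other Whole libraries. Foxn2 was 11.9 FPKM in LinNegSca1Neg replicate 3, against 14.7 to 15.2. Foxn3 was 7.97 FPKM in LinNeg replicate 1, against 2.45 to 3.38.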

How the results depend on the processing

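Of the 70 calls of members over the 6 comparisons, 49 were kept under every alternative that gave a value, and of 50 differences not called 21 were called under none. Called differences changed sign for Foxj3 and Foxk1 against Whole. After median-of-ratios scaling Foxj3 was -0.21 in LinPos against Whole and -0.28 in LinNeg against Whole, and after quantile normalization -0.15 and -0.04, with Foxk1 at -0.09 in LinPos against Whole. The cause was not tested.

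With a filter of at least 5 FPKM, which left 14 members tested, the members called were 7 in LinPos against LinNeg, 7 between the Sca1 fractions, 5 in LinNegSca1Neg against LinPos, 9 in LinPos against Whole and 11 in the F test. Fitting LinPos and LinNeg alone called 7. The 5 FPKM filter left 10846 genes tested in all. The share of all genes called under that filter and in that fit is not given here, so these counts show nothing particular to forkhead genes. With 1 library left out, the members called ranged from 9 to 13 in LinPos against LinNeg, 10 to 12 between the Sca1 fractions, 8 to 10 in LinNegSca1Pos against LinPos, 9 to 12 in LinNegSca1Neg against LinPos, 10 to 13 in LinPos against Whole, 13 to 16 in LinNeg against Whole and 17 to 18 in the F test. All genes called ranged, in the same order, from 6693 to 6934, 6664 to 7412, 7527 to 8257, 7138 to 7559, 9592 to 9815, 9235 to 9451 and 12452 to 12756.

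The replicate block also moved calls where same-numbered libraries deviated together little or not at all. These were Foxn3 between the Sca1 fractions (adjusted p = 0.0165), Foxk1 in LinNegSca1Pos against LinPos (0.0214) and Foxj2 in LinPos against Whole (0.0244). Total counts are not given, so no limit of detection can be set for members near 0.001 FPKM.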
